A study of Mus musculus with 4 samples.

Results

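Differential peaks of histone H3 acetylated at lysine 9 (H3K9ac) were examined at 10 genes of TGF-β signalling, matrix and mesenchymal cells: Id3, Pmepa1, Ski, Tgfbr1, Col5a1, Col15a1, Postn, Prrx2, Vim and Pdpn. Their peaks were found through the pairing of peaks with genes published with the study, matched by peak name to the deposited H3K9ac list. This gave 12 peaks of the 20943 deposited. The pairing was used in part (742 rows, 483 peaks). It covered chromosomes 2, 3, 4 and 19 whole, parts of chromosomes 1, 5 and 18, and none of the others, and the 10 genes lie on chromosomes 2, 3 and 4. The published pairing keeps the peaks with the most reads, and the other deposited peaks beside these 12 carry no gene name there, with 1 exception near Pdpn.

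Transforming growth factor β (TGF-β) ligands bind a pair of receptor kinases that activate SMAD transcription factors, and bone morphogenetic proteins use a parallel branch of the same pathway. In the vessel wall the pathway is known for driving collagen and other matrix genes in fibroblasts and smooth muscle cells, and macrophages also make and sense its ligands. H3K9ac marks active promoters and enhancers.

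C57BL/6J mice were exposed to chronic intermittent hypoxia (CIH) or room air (RA) for 20 weeks. In CIH, 90 seconds of 6.1% oxygen alternated with 90 seconds of 21% oxygen during the 12 hours of light, and RA mice were kept at 21%. Cells positive for CD11b, a myeloid integrin, were taken from digested aortas with magnetic beads, and the labels call them macrophages from aorta. The beads do not remove other CD11b-positive cells, and cells carried along were not measured in the files used here. Chromatin was immunoprecipitated for H3K9ac or for H3K27me3, a mark of repressed chromatin, with 1 library per mark and exposure (4 libraries). No input library was used here. With 1 library per exposure there is no replicate error, so the directions below compare 2 libraries and carry no p-value. The deposited lists hold positions and directions but no read counts, so neither the depth nor the size of a difference can be read from them, and counts per peak were not analysed here. The study gives a larger sequencing yield for the CIH library than for the RA library of each mark, and its part in the directions was not tested.

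Of the 12 peaks, 4 had the higher signal in CIH and 8 had it in RA. Peaks of Vim, Pmepa1, Id3 and Pdpn made up the first group. The second was made up of peaks of Tgfbr1 and Col15a1 (1 shared peak), Ski, Col5a1, Prrx2, Postn (2 peaks), Pmepa1 and Id3. Pmepa1 and Id3 thus each had 1 peak in each direction, and no other gene of the 10 did. The Pmepa1 peaks touch, and touching peaks of the list always differ in direction. Of the other genes only Postn had more than 1 peak. Of the 488 protein-coding genes with a peak on the chromosomes covered whole, 32 had peaks in both directions. Genes with only 1 peak are counted among the 488. In percent, 33.3 of the 12 peaks were higher in CIH (exact 95% interval 9.92 to 65.1, counting error only). The share was 45.4% in the whole deposited list and 48.9% among the 483 peaks of the pairing used. The rest of the whole list, 54.6%, was higher in RA. All 3 background shares of peaks higher in CIH, including the 61.7% of deposited peaks between 400 and 1700 bp wide, lay inside the interval of the 12 peaks. That interval treats the peaks as independent, which the touching Pmepa1 peaks are not, and all directions come from the same 2 libraries. Whether the direction of these peaks as a group differs from the background was not tested.

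The peaks are named here by gene and width. Pmepa1 encodes a membrane protein that is induced by TGF-β and holds SMAD proteins away from the receptor. Its 750-bp peak, higher in CIH, lies on chr2:173101001-173101750 of mm9, and its 500-bp peak, higher in RA, directly adjoins it on chr2:173100501-173101000. Both were also paired with the antisense gene Pmepa1os. They belong to a run of 4 pieces over 2450 bp, in the order CIH, RA, CIH and CIH along the chromosome, with a gap of 400 bp before the last, in which 1550 bp were higher in CIH and 500 bp in RA. The outer pieces, of 350 and 450 bp, had no gene in the pairing used. No other deposited H3K9ac peak lay within 50 kb, so the RA piece is a 500-bp stretch between pieces of the other direction.

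The first 300 bases of both Pmepa1 peaks are shown because the pieces meet at the first base of the 750-bp peak and differ in sequence (+ strand of mm9, chr2:173101001-173101300 and chr2:173100501-173100800). Capitals mark every match to the 10 motifs searched on both strands: CAGAC and GTCTAGAC (SMAD), GGCGCC (GC-rich SMAD), TGANTCA (AP-1), CACGTG (E-box), CAGGTG (SNAI and ZEB), ACGTG (hypoxia response core), GGAATG (TEAD), GAGGAA (ETS and PU.1) and GGGCGG (SP and KLF). The motif ACGTG is contained in CACGTG.
Pmepa1 750-bp: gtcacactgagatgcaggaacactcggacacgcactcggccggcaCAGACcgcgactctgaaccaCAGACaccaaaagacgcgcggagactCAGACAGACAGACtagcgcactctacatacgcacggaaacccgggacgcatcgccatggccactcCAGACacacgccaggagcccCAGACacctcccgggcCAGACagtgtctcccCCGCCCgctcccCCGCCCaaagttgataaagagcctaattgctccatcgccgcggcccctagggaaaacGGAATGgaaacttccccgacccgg
Pmepa1 500-bp: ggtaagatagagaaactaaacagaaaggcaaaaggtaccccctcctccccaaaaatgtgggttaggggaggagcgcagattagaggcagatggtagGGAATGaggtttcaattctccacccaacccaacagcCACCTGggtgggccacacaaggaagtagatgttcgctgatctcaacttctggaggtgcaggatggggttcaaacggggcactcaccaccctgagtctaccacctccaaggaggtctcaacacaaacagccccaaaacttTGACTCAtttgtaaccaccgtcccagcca
The stretch of the peak higher in CIH holds 8 copies of CAGAC, 3 of them in 1 run where neighbouring copies share a base, 2 of GGGCGG read on the other strand, and 1 of the TEAD motif. The stretch of the peak higher in RA holds no CAGAC and 1 copy each of the AP-1, SNAI and ZEB, and TEAD motifs. Over all 399 bases given for each peak, the numbers of CAGAC copies were 8 in the peak higher in CIH and 2 in the peak higher in RA. The GC content was 65.0% in the peak higher in CIH and 53.1% in the peak higher in RA, with 35 and 9 CpG dinucleotides.

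Id3 encodes an inhibitor of basic helix-loop-helix transcription factors and is a target of bone morphogenetic protein signalling. Its 1250-bp peak (chr4:135695951-135697200) was higher in CIH and stood alone, the nearest other piece being 4600 bp away. Its 550-bp peak (chr4:135690301-135690850), 5100 bp to the low side, was higher in RA and directly adjoined a 500-bp piece higher in CIH. Another 2 pieces on the low side, of 500 bp higher in CIH and 350 bp higher in RA, lay 10200 and 7900 bp from the 550-bp peak. Id3 was the only gene paired with either peak.

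The first 300 bases of the Id3 peaks (chr4:135695951-135696250 and chr4:135690301-135690600, + strand of mm9) are shown because the same gene had both directions, with capitals as above.
Id3 1250-bp: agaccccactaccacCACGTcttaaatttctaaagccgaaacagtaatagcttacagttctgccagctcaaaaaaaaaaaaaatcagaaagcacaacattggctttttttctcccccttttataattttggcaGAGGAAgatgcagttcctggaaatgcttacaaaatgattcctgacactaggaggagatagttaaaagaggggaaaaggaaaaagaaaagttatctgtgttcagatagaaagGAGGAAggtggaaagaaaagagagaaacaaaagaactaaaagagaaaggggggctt
Id3 550-bp: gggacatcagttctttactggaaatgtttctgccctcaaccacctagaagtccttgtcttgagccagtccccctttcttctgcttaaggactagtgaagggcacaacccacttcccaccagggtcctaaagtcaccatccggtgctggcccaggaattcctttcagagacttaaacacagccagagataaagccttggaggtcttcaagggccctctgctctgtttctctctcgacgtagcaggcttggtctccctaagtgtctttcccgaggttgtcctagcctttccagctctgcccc
The stretch of the peak higher in CIH holds 2 copies of GAGGAA and 1 of ACGTG read on the other strand, and that of the peak higher in RA holds none of the 10 motifs. Neither holds GGCGCC, the GC-rich sequence bound by SMAD proteins of the bone morphogenetic protein branch.

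Tgfbr1 encodes the type I receptor kinase of TGF-β, and Col15a1 a collagen of basement membranes. They share 1 peak of 1100 bp (chr4:47233951-47235050), higher in RA, and RefSeq (GRCm38) lists no protein-coding gene between them, so the pairing does not tell to which of them the peak belongs. The peak had a piece higher in CIH on each side, of 300 and 450 bp, so that 750 bp were higher in CIH and 1100 bp in RA over 1850 bp. Further to the low side lay a 450-bp piece higher in CIH at 34200 bp and a 350-bp piece higher in RA at 12850 bp. Of the first 399 bases, 73 are given as N in the published sequence. Ski encodes a nuclear co-repressor that binds SMAD proteins. Its peak, also paired with 2610002J02Rik, was higher in RA and the narrowest of the 12 (400 bp, chr4:154608901-154609300). A 250-bp piece higher in CIH adjoined it, and a 350-bp piece higher in RA followed that. In all 250 bp were higher in CIH and 750 bp in RA, and a further 400-bp piece 10650 bp to the low side was higher in RA.

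Each row of the plot of neighbouring pieces shows one of the 12 peaks with what lies beside it.

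**Figure D1:**
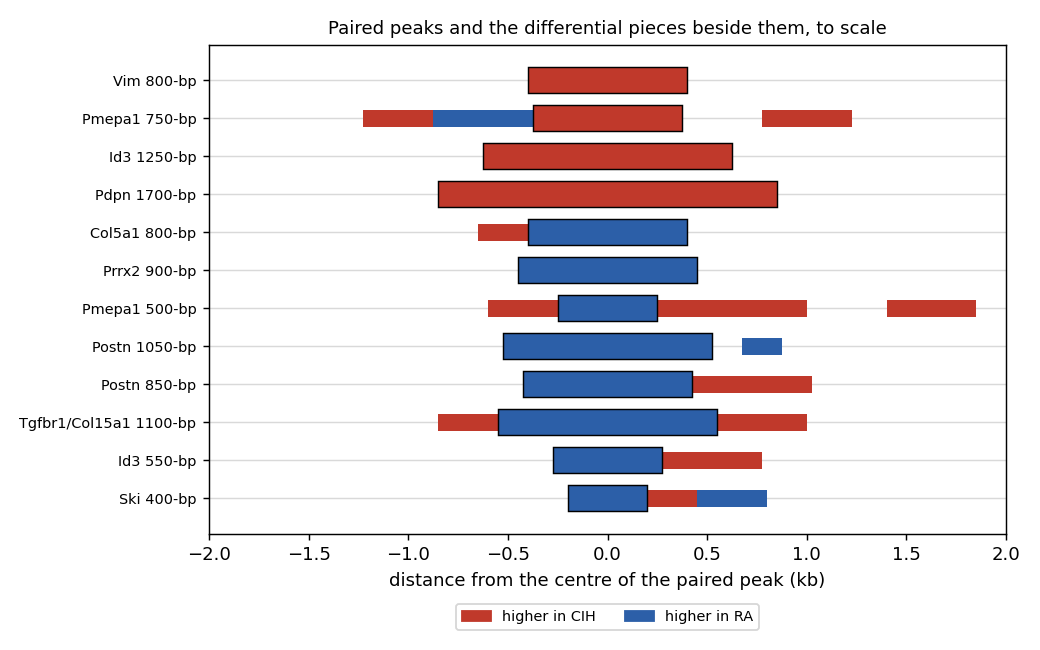
Differential H3K9ac pieces within 2 kb of the centre of each of the 12 peaks (horizontal axis, kb, to scale), with 1 row per peak, outlined bars for the peak itself, red for higher in CIH and blue for higher in RA. Of the 4 outlined red bars 1 touches a blue bar, and of the 8 outlined blue bars 6 touch a red bar.

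Among the matrix genes, Col5a1 encodes a chain of collagen V, which controls fibril diameter. Its 800-bp peak (chr2:27654701-27655500) was higher in RA, adjoined a 250-bp piece higher in CIH and was also paired with Rxra, a retinoid receptor gene that neighbours Col5a1 in RefSeq. The 1 other piece within 50 kb, of 350 bp, lay 7250 bp to the low side and was higher in CIH. The first 300 bases (chr2:27654701-27655000) are shown because, over this length, no other of the 12 peaks held as many different motifs. Over all 399 bases given, the Pdpn peak held more.
Col5a1 800-bp: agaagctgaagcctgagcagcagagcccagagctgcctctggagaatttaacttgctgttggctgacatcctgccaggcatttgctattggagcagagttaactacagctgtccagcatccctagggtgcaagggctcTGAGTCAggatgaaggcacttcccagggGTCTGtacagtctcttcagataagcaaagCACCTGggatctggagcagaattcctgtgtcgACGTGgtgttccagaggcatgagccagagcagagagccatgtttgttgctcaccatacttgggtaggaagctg
It holds 1 copy each of the AP-1, SMAD, SNAI and ZEB, and hypoxia response core motifs, in this order along the strand.

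Postn encodes periostin, a matrix protein of activated fibroblasts. Both of its peaks were higher in RA and both were paired with Postn alone. The 1050-bp peak (chr3:54283701-54284750) was followed after 150 bp by a 200-bp piece that was also higher in RA. The 850-bp peak (chr3:54339001-54339850) adjoined a 600-bp piece higher in CIH. The other 3 pieces within 50 kb of either peak were higher in RA. The RefSeq start region of Gm31154, a long non-coding RNA gene on the - strand, reaches into the 850-bp peak, with the start of the gene just outside it on the low side, at position -187 counted from the first base of the peak. RefSeq lists the pseudogene Gm5641 between Postn and Gm31154, so the 850-bp peak lies beside the start of another gene than the one it was paired with.

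Of the genes of mesenchymal cells, Vim encodes vimentin, an intermediate filament protein that macrophages also use, Pdpn encodes podoplanin, a surface glycoprotein of lymphatic endothelium, some fibroblasts and inflammatory macrophages, and Prrx2 encodes a homeobox factor of mesenchyme. The Vim peak (800 bp, chr2:13495301-13496100), higher in CIH, was also paired with Trdmt1, and its nearest neighbour, 14100 bp away, was higher in RA. The other 3 pieces near it, 28600 to 29250 bp away, comprised 1 with the higher signal in CIH and 2 with it in RA. The Pdpn peak (1700 bp, chr4:142801351-142803050), the widest of the 12, was higher in CIH and also paired with Prdm2. A second Prdm2 peak, 1600 bp wide and also higher in CIH, lay 49000 bp away and was the 1 neighbour of the 12 peaks that the pairing used here names. On the other side a 250-bp piece higher in RA lay 25600 bp away. The Prrx2 peak (900 bp, chr2:30683001-30683900), also paired with Asb6, was higher in RA and had no other H3K9ac peak within 50 kb, the nearest lying 99950 bp away.

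Vim was the 1 gene of the 10 whose annotated start could be placed inside its peak. The last 12 of the 399 bases given for the peak equal the first 12 of the 300-base RefSeq start region of Vim, which puts the start of the gene at base 638 of the 800-bp peak. The match is short and was looked for after the longer search had found none. The 300 bases before the end of the given sequence (chr2:13495400-13495699 of mm9, + strand) and the RefSeq start region (chr2:13574061-13574360 of GRCm38.p6, + strand) are shown with the shared bases in capitals.
Vim 800-bp: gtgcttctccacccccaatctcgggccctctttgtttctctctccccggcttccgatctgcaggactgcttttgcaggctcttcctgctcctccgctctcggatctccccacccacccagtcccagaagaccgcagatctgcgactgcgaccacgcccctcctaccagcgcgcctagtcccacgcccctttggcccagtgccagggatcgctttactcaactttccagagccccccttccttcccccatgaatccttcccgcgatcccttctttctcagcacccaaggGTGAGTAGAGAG
Vim start region: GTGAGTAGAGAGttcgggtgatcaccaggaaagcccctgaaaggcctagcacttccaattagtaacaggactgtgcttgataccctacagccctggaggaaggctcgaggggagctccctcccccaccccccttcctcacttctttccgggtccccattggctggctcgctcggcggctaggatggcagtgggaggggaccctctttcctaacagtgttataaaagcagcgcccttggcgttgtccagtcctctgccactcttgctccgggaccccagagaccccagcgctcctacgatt
Of the 483 peaks, 100 (20.7%) held the start region of a paired gene by the same search, against 1 of the 12 (8.33%). The search sees the first 399 bases of a peak, so a start whose 300-base region lies beyond those bases is missed. The start regions of 9 of the 10 genes were in the RefSeq table, with no entry for Pmepa1.

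The 4 peaks higher in CIH were 750 to 1700 bp wide with a median of 1025 bp, and the 8 higher in RA were 400 to 1100 bp wide with a median of 825 bp. In the whole list the medians were 600 and 300 bp, but among the 483 peaks they were 1400 and 850 bp. The 12 peaks were thus wide for the deposited list, and the median of either direction was below that of the 483 peaks, which the study had kept for their reads. The Vim and Pmepa1 peaks higher in CIH were wider than 6.78% and 4.66% of those of the 483 that were higher in CIH, and the Ski, Pmepa1 and Id3 peaks higher in RA were wider than 2.83%, 5.26% and 8.10% of those higher in RA.

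**Figure D2:**
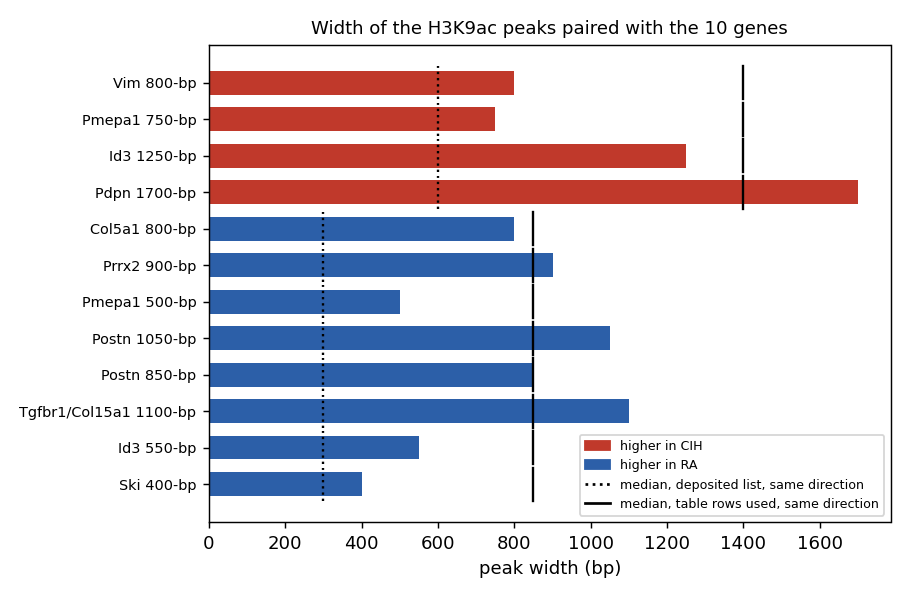
Width in bp (horizontal axis) of each of the 12 H3K9ac peaks, red for higher in CIH and blue for higher in RA, with dotted and solid black lines for the medians of peaks of the same direction in the deposited list (600 and 300 bp) and in the table rows used (1400 and 850 bp). All 12 bars pass the dotted line, and 1 red bar (Pdpn) and 3 blue bars (Prrx2, the wider Postn peak and Tgfbr1/Col15a1) pass the solid one.

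Touching peaks of the list always differ in direction: in none of the 4157 touching pairs did both peaks have the same one. Of the 4 peaks higher in CIH, 1 (25%) touched a peak higher in RA. This share was 40.8% over all deposited peaks higher in CIH and 30.9% over those of the 483. Of the 8 peaks higher in RA, 6 (75%, exact 95% interval 34.9 to 96.8%) touched a peak higher in CIH. This share was 32.3% over all deposited peaks higher in RA, 31.2% over those between 400 and 1100 bp wide and 48.6% over those of the 483. The first pair of values lies just under the interval and the last one inside it. A peak higher in CIH on both sides was found for 2 of the 8 (Pmepa1 and Tgfbr1/Col15a1). The share was 4.05% over all deposited peaks higher in RA and 4.45% over those of the 483. The 8 peaks are few, some belong to 1 gene, and no test was made of these shares.

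Within 50 kb of the 12 peaks 25 further H3K9ac peaks were deposited, of which 13 had the higher signal in CIH and 12 had it in RA (52% for CIH, 31.3 to 72.2%). The share was 69.2% within 10 kb (9 of 13), where the touching pieces fall. As touching peaks always differ in direction, the pieces touching the peaks higher in RA were bound to be higher in CIH. Both shares therefore reflect in part the directions of the 12 peaks themselves. Of the 12 peaks, 8 (66.7%) were paired with more than 1 gene, against 45.1% of the 483. The 12 peaks had 0 to 4 neighbours each, with a median of 3, against a median of 2 in the whole list. No H3K27me3 peak of the 146 deposited lay within 50 kb of any of the 12 (0 of 12, exact upper limit 26.5%), against 0.759% of all deposited H3K9ac peaks that had one. The nearest, higher in RA, lay 350 kb from the Tgfbr1/Col15a1 peak, and for the other 11 peaks the distance was at least 2482 kb.

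**Figure D3:**
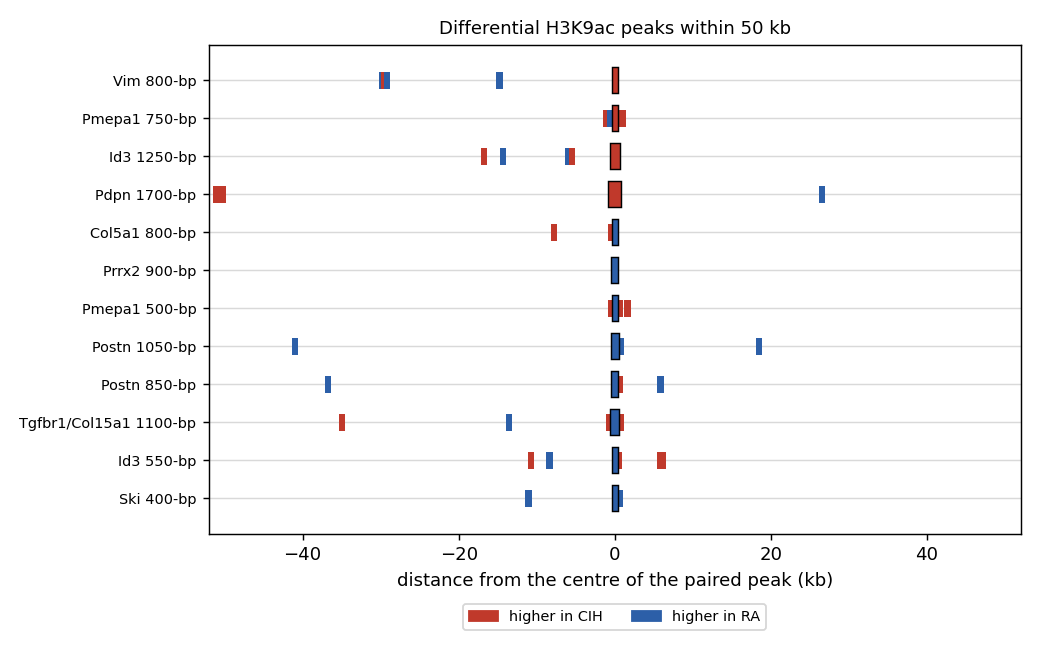
All deposited H3K9ac peaks within 50 kb of each of the 12 peaks by distance from the peak's centre (horizontal axis, kb), with 1 row per peak, outlined bars for the peak itself, red for higher in CIH and blue for higher in RA. Pieces narrower than 0.8 kb are drawn 0.8 kb wide and can hide touching ones. The Prrx2 row holds no neighbour and the Postn rows hold mostly blue ones.

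In base composition the 12 peaks were close to the 483 in GC content and lower in CpG among those higher in RA. The median GC content of the first 399 bases was 51.1% in the 4 peaks higher in CIH and 53.4% in the 8 higher in RA, against 52.6% and 53.9% among 475 peaks with as many bases. The 4 peaks higher in CIH held 5 (Pdpn), 9 (Id3), 17 (Vim) and 35 (Pmepa1) CpG dinucleotides, with a median of 13, the same as the 13 of the other set. Of the 8 peaks higher in RA, 6 held 6 CpG dinucleotides or fewer, as did 22.5% of the 240 higher in RA. Their numbers were 0 for Ski, 2 each for Col5a1, Tgfbr1/Col15a1 and the wider Postn peak, 4 for the narrower Postn peak, 6 for Id3, 9 for Pmepa1 and 20 for Prrx2. The median of 3 stood against 15 among the 240. CpG was counted after the values had been seen, bases given as N in 4 of the 12 peaks (Pmepa1 750-bp, Tgfbr1/Col15a1, Pdpn and Ski) hide some, and no test was made.

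**Figure D4:**
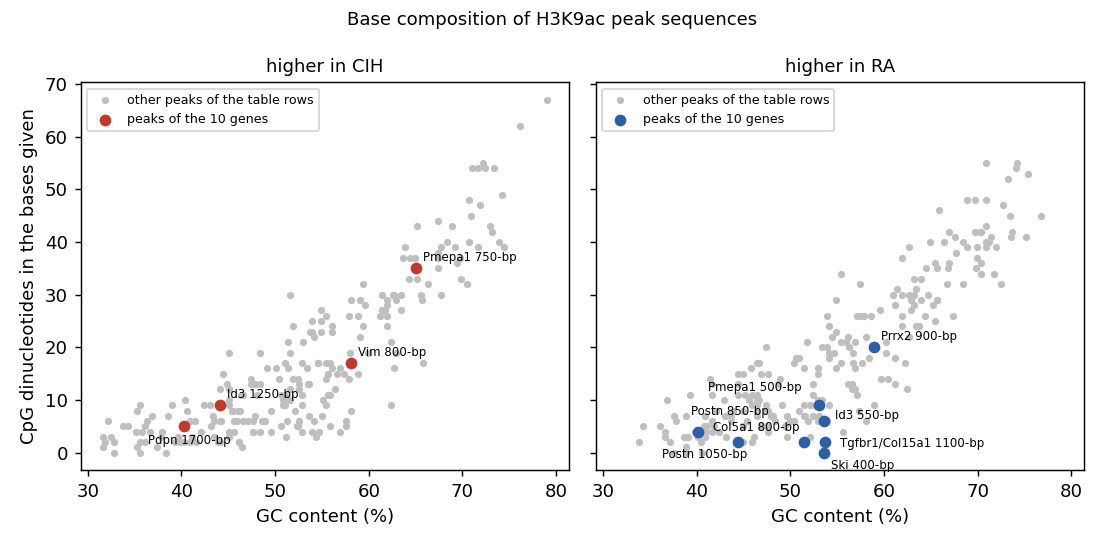
Number of CpG dinucleotides (vertical axis) against GC content in percent (horizontal axis) of the first 399 bases of each H3K9ac peak, with CIH-higher peaks in the left panel and RA-higher peaks in the right one, and grey points for the other peaks of the table rows used. In the right panel 6 of the 8 blue points lie at 6 CpG or fewer.

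CAGAC was found in 7 of the 12 peaks (58.3%), against 59.2% of the 475. The AP-1 motif was in 3 (Col5a1, Pmepa1 500-bp and Postn 850-bp, all higher in RA), or 25% against 9.89%. The hypoxia response core was in 5 (Vim, Id3 1250-bp and Pdpn, higher in CIH, and Col5a1 and Tgfbr1/Col15a1, higher in RA), or 41.7% against 28.0%. In the first 300 bases it was in 3 of the 12 (25% against 20.2%). The GGGCGG motif was in 2 (Pmepa1 750-bp and Id3 1250-bp), or 16.7% against 35.2%, and in the first 300 bases in 1 (8.33% against 29.1%). GAGGAA was in 4 (33.3% against 34.3%), CAGGTG in 3 (25% against 21.9%), GGAATG in 3 (25% against 19.2%) and CACGTG in 1 (8.33% against 9.05%), which is in none in the first 300 bases (against 5.26%). GGCGCC was in none, against 16.4%, and GTCTAGAC in none, against 0.421%. A match is a description of the letters only.

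In a list of 50 genes of TGF-β and bone morphogenetic protein signalling, 17 lie on the chromosomes that the pairing used covers whole, and 5 of these (29.4%) had a peak in it, against 10.2% of the 4798 protein-coding genes there. The lists were written with gene names of the pairing already seen, so their shares are no test against that background. They also include the 10 genes, which have a peak by the rule that chose them. Without these it was 1 of 13 (7.69%) here, 3 of 9 (33.3%) in the matrix list and 1 of 5 (20%) in the mesenchymal list, too few to set against the background. The 1 gene of the signalling list with a peak besides Id3, Pmepa1, Ski and Tgfbr1 was Jun, a subunit of AP-1, with peaks higher in CIH of 1050 and 1300 bp and a peak higher in RA of 800 bp that adjoins the first of them. Acvr1, Bmp2, Id1, Skil and Smad9 were among the 12 on those chromosomes with none. No gene of the list had peaks higher in CIH alone, 2 had peaks higher in RA alone and 3 had both. Over the 488 protein-coding genes with a peak on those chromosomes, 205 had CIH alone, 251 had RA alone and 32 had both. Without the genes chosen by the rule, the signalling list leaves 1 gene, Jun, with both, so its directions mainly restate those of the 12 peaks. In a list of 53 matrix genes, 6 of the 12 on those chromosomes had a peak, 3 higher in CIH and 3 higher in RA. Plod1, a collagen lysyl hydroxylase, Thbs3, a thrombospondin, and Mmp24, a membrane-type metalloproteinase, were higher in CIH, and Col5a1, Col15a1 and Postn were higher in RA. The Plod1 and Thbs3 peaks each adjoined a piece higher in RA, and the Mmp24 peak touched none. Adamts4, an aggrecanase on chromosome 1, which is covered in part, was paired with a 950-bp peak higher in RA that was also paired with B4galt3 and holds the RefSeq start of that gene. In a list of 18 mesenchymal and mesothelial genes, 8 lie on those chromosomes. Peaks of Vim, Pdpn and Tbx15 were higher in CIH and that of Prrx2 was higher in RA. Each of these peaks was also paired with another gene (Trdmt1, Prdm2, Wars2 and Asb6). The pairing does not tell to which gene such a peak belongs. The Tbx15 peak adjoined a piece higher in RA.

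Several of the 10 genes are known for cells other than macrophages, so peaks of marker genes were looked up in the same way. Of 12 fibroblast markers and 10 endothelial markers none had a peak in the pairing used, but 1 (Gsn) and 4 (Tek, Tie1, Emcn and Egfl7) of them lie on the chromosomes it covers whole. Of 11 smooth muscle markers, Acta2 and Synpo2 lie on those chromosomes, and Synpo2 had peaks of 1750 and 1900 bp, both higher in CIH, of which the wider was also paired with Sec24d. Of 16 macrophage markers 7 lie on those chromosomes, of which 1 (14.3%) had a peak, against 10.2% of the protein-coding genes there. It was Mertk, a receptor for the uptake of dying cells, with a 750-bp peak higher in RA that adjoined a piece higher in CIH. Fcgr1, Mrc1, C1qa, C1qb, C1qc and Spi1 had none. Fcgr3, an Fc receptor gene on chromosome 1, was paired with a 450-bp peak higher in RA that was also paired with 1700009P17Rik. The markers that define each cell type lie mostly outside the chromosomes covered, and the list holds differences and not all acetylated regions, so it does not show which of these markers carried the mark. The part of fibroblasts, smooth muscle cells or endothelial cells in the directions above was not tested. In bulk chromatin, fewer cells of a type and less of the mark per cell cannot be told apart.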

How the data were processed

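ChIP-Seq of H3K9ac and H3K27me3 was made from aorta macrophages of CIH and RA mice, 1 library each. The submitters' notes on processing name MACS2 2.1.0 and bedtools 2.23.0, then Picard 1.121, BWA 0.7.12, SAMtools 1.2 and Trimmomatic 0.32, and the build mm9, without saying what each did. For each mark the authors deposited a list of differences, in steps of 50 bp, with position, name, sign and a score, which is 1000 in every row. The study's methods combined more than 1 analysis tool and removed low-complexity and blacklisted regions. A stricter score could therefore not be tried, and the lists give no depth. What the sign stands for was taken from the exposure named for 483 peaks published with the study, with 1 exposure per sign (minus for CIH). Only peak names, gene pairs, directions and sequences were taken from there.

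Peaks, gaps between peak edges, base composition and motifs were computed with Python 3.11.15, numpy 2.4.6, pandas 2.3.3 and scipy 1.17.1. Intervals are Clopper-Pearson. RefSeq start regions (250 bases before to 50 after a start) were searched in stretches of 30 bases, or 12 at the edge of a sequence. In all 144 matches of 30 bases the orientation put the peak sequence on the + strand, for genes of either strand. Functions were tested on simulated data. The named genes are the 10, those paired with the same or neighbouring peaks, and list members with a peak. Members and lists were chosen with earlier results of these data known, and the lists also with gene names of the pairing known.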

Additional observations from a re-analysis of the deposited data

How the results depend on the processing

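The share of the 12 peaks higher in CIH was 30.8% over gene and peak pairs, 36.4% with touching runs counted once by their widest peak, 20% over the 5 peaks paired with none but the 10 genes, and 25% over the 4 peaks paired with 1 gene (an alternative chosen after seeing the data). It was 100% over the 1 peak, that of Vim, that held the start region of its paired gene. The other peaks near the 12 numbered 13 within 10 kb. Their share higher in CIH, touching pieces included, was between 50% and 69.2% with windows of 10, 25 and 100 kb or distances between centres. H3K27me3 peaks numbered 1 within 500 kb and 1 within 1000 kb. The first 300 bases gave a median GC content of 52.6%, and moved the peaks holding a motif to 3 (hypoxia response core), 1 (SP and KLF) and 0 (E-box). No paired analysis was possible because each exposure has 1 library per mark. Leaving out a library leaves no comparison. Without replicates, an input library or read counts, a difference between exposures cannot be told apart from a difference between the 2 libraries or the cells in them. A stricter score was not run, since the score does not vary.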
